A study of Mus musculus with 18 samples.

Results

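Whether promoters that differ in accessibility between the central amygdala (CeA) and the cortex differ alike in sorted somatostatin nuclei and in unsorted nuclei was asked with 1 contrast, the interaction: the CeA minus cortex difference in SOM+ nuclei minus the CeA minus cortex difference in bulk nuclei. It was taken over promoter windows with a mean of at least 10 CPM (the count over the column total, times 1000000) across the 18 libraries. This held for 16417 of 26065 windows (63.0%), and 9648 lay below. The lowest window included was that of Lefty2 at 10.0031 CPM and the highest left out that of Baiap2l2 at 9.99747 CPM. A positive interaction means that accessibility in CeA relative to cortex was higher in SOM+ than in bulk nuclei, and a negative one that it was lower; all differences are log2 fold changes.

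The assay was ATAC-seq, which reads open chromatin through insertions of the transposase Tn5, on nuclei of C57BL/6J mice aged 2 to 3 months, with 50000 nuclei per library. SOM+ nuclei were gated on a GFP-tagged histone in somatostatin cells (the line named SOMH2B-GFP), came from mice labelled WT and were either control or fear-conditioned, with 2 libraries for each of these in CeA and in cortex. Bulk nuclei carried the DNA stain NucBlue and came from mice of the SOMErbb4-KO line, which lacks Erbb4 in SOM+ cells while other cells keep it, labelled control, with 3 KO and 2 WT libraries per region. WT was read from the titles, because the genotype field gives the knockout for these libraries too. The cortex was dissected as prefrontal cortex (PFC) per the protocol. Control and fear groups, and KO and WT groups, were averaged with equal weight. Sort, mouse line and stain differ together between SOM+ and bulk, so their parts in the interaction cannot be told apart. The protocol speaks of technical replicates, so the p-values measure the spread between libraries, which may be technical.

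Somatostatin neurons release the inhibitory transmitter GABA and the peptide somatostatin. In the cortex they are local interneurons that arise in the medial ganglionic eminence (MGE) under Nkx2-1 and Lhx6, whereas the CeA is a nucleus of striatum-like GABAergic neurons, in which somatostatin cells include neurons that project. Bulk cortex holds mostly glutamatergic neurons and glia, and bulk CeA holds mostly GABAergic neurons and glia. An accessible promoter window is a nucleosome-depleted start site and is not a measure of transcription.

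The promoters of 5 genes that stand for the ways in which the interaction arose are shown first. Cort encodes cortistatin, a peptide of cortical interneurons. Slc32a1 encodes the vesicular GABA transporter. Herc3 encodes a HECT-type ubiquitin ligase, Cacna2d1 a calcium channel auxiliary subunit and Timp2 an inhibitor of metalloproteinases. Each run is 300 bases in the sense of the gene, from 250 bases before to 50 bases after the RefSeq start site, in the build GRCm38.p6, while the counted windows are in mm9. Capitals mark the E-box letters CANNTG, the general site of basic helix-loop-helix factors, and the homeodomain letters TAATTA, searched on both strands, with no overlap between matches of these 2 motifs. Cort lies at chr4:149126714-149127013, minus strand, Slc32a1 at chr2:158610508-158610807, plus strand, Herc3 at chr6:58833450-58833749, plus strand, Cacna2d1 at chr5:15934441-15934740, plus strand and Timp2 at chr11:118355362-118355661, minus strand.
Cort: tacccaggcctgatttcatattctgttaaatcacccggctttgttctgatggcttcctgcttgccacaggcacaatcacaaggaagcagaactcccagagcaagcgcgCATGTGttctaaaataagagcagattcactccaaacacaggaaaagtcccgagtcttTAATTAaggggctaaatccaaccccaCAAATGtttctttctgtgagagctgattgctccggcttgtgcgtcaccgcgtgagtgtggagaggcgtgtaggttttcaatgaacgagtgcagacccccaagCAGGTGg
Slc32a1: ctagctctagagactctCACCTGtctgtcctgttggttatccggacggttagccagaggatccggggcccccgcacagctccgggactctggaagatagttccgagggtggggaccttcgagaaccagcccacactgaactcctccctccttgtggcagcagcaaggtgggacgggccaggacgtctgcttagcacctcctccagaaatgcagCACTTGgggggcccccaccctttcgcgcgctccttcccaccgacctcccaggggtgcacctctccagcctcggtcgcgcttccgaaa
Herc3: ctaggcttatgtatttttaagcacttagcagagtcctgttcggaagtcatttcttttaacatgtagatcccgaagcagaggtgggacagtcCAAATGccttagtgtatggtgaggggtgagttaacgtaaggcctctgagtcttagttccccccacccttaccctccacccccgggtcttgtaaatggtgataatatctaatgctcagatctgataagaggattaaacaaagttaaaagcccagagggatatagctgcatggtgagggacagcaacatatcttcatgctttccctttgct
Cacna2d1: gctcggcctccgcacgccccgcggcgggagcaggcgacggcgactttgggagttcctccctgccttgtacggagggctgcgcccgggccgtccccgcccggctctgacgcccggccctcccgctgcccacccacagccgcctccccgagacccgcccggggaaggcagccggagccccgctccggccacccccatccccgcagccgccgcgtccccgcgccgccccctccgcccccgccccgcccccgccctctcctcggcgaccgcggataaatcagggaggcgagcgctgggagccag
Timp2: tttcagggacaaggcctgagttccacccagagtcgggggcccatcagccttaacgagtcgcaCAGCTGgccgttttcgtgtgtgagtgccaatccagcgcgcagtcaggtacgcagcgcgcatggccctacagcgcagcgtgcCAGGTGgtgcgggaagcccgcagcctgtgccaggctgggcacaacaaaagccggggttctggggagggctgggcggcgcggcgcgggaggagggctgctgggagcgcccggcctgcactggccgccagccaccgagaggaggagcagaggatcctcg
Cort held 3 matches to CANNTG and 1 to TAATTA, Slc32a1 held 2, Timp2 held 2 and Herc3 held 1 match to CANNTG. The run of Cacna2d1 held neither motif. The counted windows were not searched. Of 32851 promoters in the table, 72.3% held CANNTG and 5.29% held TAATTA. A match is a string of letters and not a site.

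Marker promoters set the sorts further apart in cortex than in CeA. Gad1, which encodes a GABA-synthesising enzyme, stood at 91.6 ± 2.60 CPM in cortex SOM+ libraries (SD, n = 4) and 20.6 ± 4.06 CPM in cortex bulk libraries (SD, n = 5). Neurod6, a factor of pallial glutamatergic neurons, stood at 10.9 ± 4.06 CPM and 81.1 ± 13.9 CPM in the same libraries. In CeA, Gad1 stood at 83.98 ± 9.59 CPM in SOM+ and 57.2 ± 7.26 CPM in bulk libraries, and Neurod6 ranged from 3.12 to 8.22 CPM in SOM+ and from 8.29 to 17.2 CPM in bulk libraries. Lhx6 stood at 97.1 ± 5.56 CPM in cortex SOM+ and 21.4 ± 5.003 CPM in cortex bulk libraries, against 22.1 ± 2.82 CPM in CeA SOM+ and 19.3 ± 7.23 CPM in CeA bulk libraries, which overlapped. The window of Sst itself, which encodes somatostatin, did not set the sorts apart, at 18.9 ± 6.60 CPM and 16.9 ± 1.85 CPM in SOM+ and 19.996 ± 4.70 CPM and 12.7 ± 4.12 CPM in bulk libraries of CeA and cortex. Levels here and below are CPM after TMM scaling (trimmed mean of M values, which sets a scaling factor per library), and single libraries are listed as control 1 and 2 and fear 1 and 2 for SOM+, and as KO 1 to 3 and WT 1 and 2 for bulk. In such libraries, fewer nuclei of a type and less accessible chromatin per nucleus cannot be told apart.

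Total counts in promoter windows ranged from 2655208 to 14699469 per library, and the cortex SOM+ libraries, from 9473508 upward, were the 4 deepest. In 4 bulk libraries the Y-linked promoters went against the labelled sex: KO 2 of both regions, labelled male, held 0 counts there, and WT 1 of both regions, labelled female, held 243 and 627. With sex taken from those promoters the interaction was called at 8776 windows, and without the 4 libraries at 6569, against 8958 with all libraries and labelled sex. Promoter enrichment, a ratio of median CPM with ribosomal protein promoters above and olfactory receptor promoters below the line, was 27.9 ± 8.50 in CeA SOM+, 61.8 ± 9.10 in cortex SOM+, 15.9 ± 3.40 in CeA bulk and 12.0 ± 2.18 in cortex bulk libraries (SD). Its own interaction was -1.59 on the log2 scale (exact permutation test, two-sided, 17640 arrangements, p = 0.00125), so this ratio moved with the contrast. Its part in the counts below was not tested beyond the fit that holds it as a covariate. Before TMM scaling, olfactory medians were 1.76 to 3.77 CPM in CeA SOM+ and 0.98 to 1.22 CPM in cortex SOM+ libraries. Ribosomal medians, 62.3 to 75.3 and 66.6 to 73.5 CPM, overlapped. With the median of all windows below the line the ratio overlapped too, at 3.21 to 4.33 in CeA SOM+ and 3.95 to 4.53 in cortex SOM+ libraries.

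The interaction was called at 8958 of the 16417 windows (54.6%) at an adjusted p under 0.05, in edgeR's quasi-likelihood test over all 25246 windows tested, of which 41.5% were called. It was higher at 3210 windows (19.6%) and lower at 5748 (35%), and 3805 windows differed by more than 2-fold. The split between directions moved with the scaling. Higher windows made up 35.8% of calls with TMM, 48.5% with total-count scaling, 51.4% with cyclic loess scaling and 55.1% with upper quartile scaling, where 5003 windows were higher and 4075 lower. The median of all windows tested moved from 0.03 with TMM to 0.27 with upper quartile scaling, and that of the 16417 windows from -0.19 to 0.05, so single values are best read against these medians. With promoter enrichment as a covariate, calls fell to 3660, of which 2022 were higher and 1638 lower. Enrichment ran from 17.65 to 35.6 in CeA SOM+ and from 55.04 to 74.8 in cortex SOM+ libraries, without overlap. In bulk libraries the regions overlapped, at 10.36 to 19.03 in CeA and 9.67 to 14.4 in cortex. The covariate and the SOM+ region difference can thus hardly be told apart in that fit, and fewer calls there do not show a smaller difference.

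CeA and cortex differed at 9344 windows in SOM+ nuclei (56.9%, against 46.1% of all windows tested) and at 4986 in bulk nuclei (30.4%, against 21.8%). With promoter enrichment as a covariate this order turned, with 3340 windows in SOM+ and 5181 in bulk nuclei. Since enrichment set the regions apart in SOM+ libraries alone, the 2 counts of that fit are not alike in precision. Among the interaction calls, 1200 were higher in CeA and 3981 lower in CeA in SOM+ nuclei with no call in bulk nuclei. A further 322 were higher and 964 lower in CeA in bulk nuclei with no call in SOM+ nuclei. Opposite and called region differences were found at 1620 windows (9.87%, against 6.55% of all windows tested), 587 of them high in CeA in SOM+ nuclei and 1033 low. Both sorts differed in the same direction and to unequal degree at 144 windows with a higher and 164 with a lower interaction, and neither term alone passed at 315 and 248. Across the 16417 windows the region differences in the 2 sorts, which share no library, had a Pearson r of -0.05 and a Spearman rho of -0.20, given as a description.

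**Figure D1:**
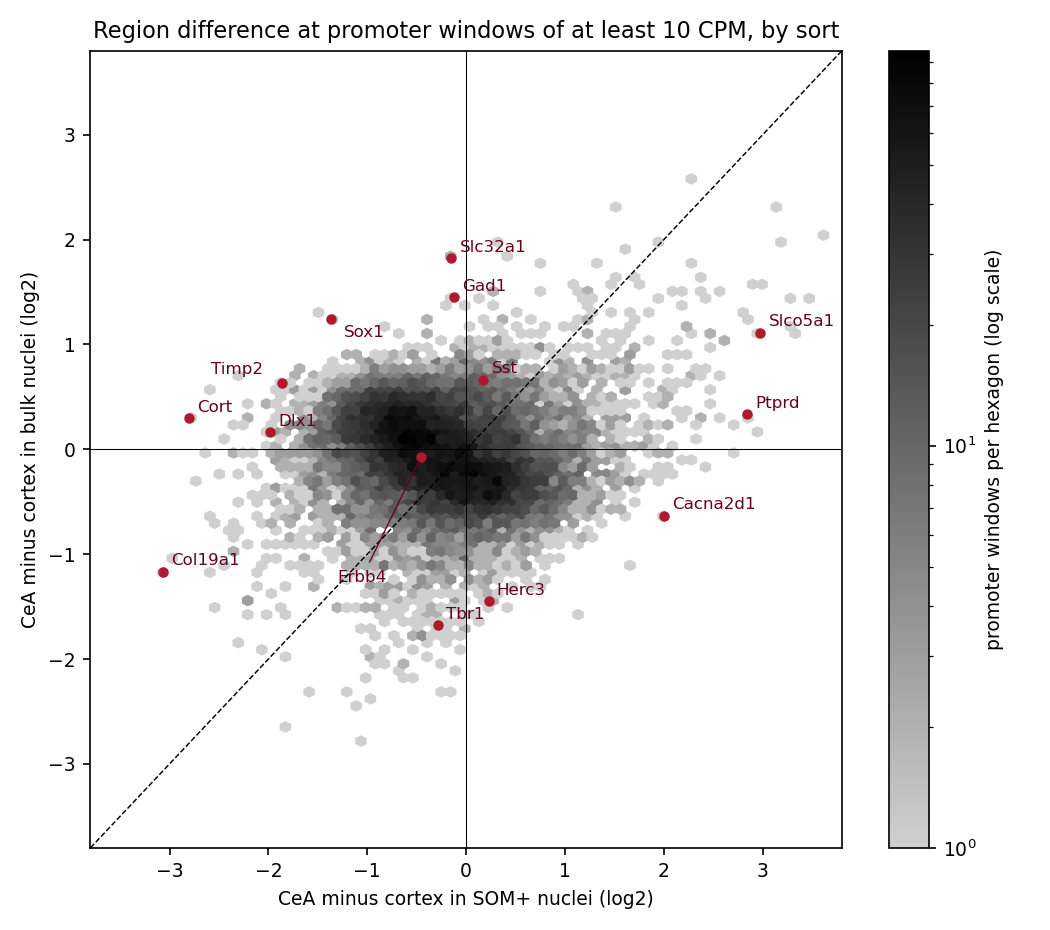
The CeA minus cortex log2 difference in SOM+ nuclei (x axis) and in bulk nuclei (y axis) for 16417 promoter windows, as hexagons shaded by the number of windows on a log scale; red points are 14 named genes and the dashed line marks equal differences. The windows spread across the dashed line, with Slc32a1 and Gad1 apart on the y axis, Cort, Dlx1 and Ptprd apart along the x axis, and Timp2, Sox1 and Cacna2d1 in the quadrants of opposite sign.

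Slc32a1 and Gad1 were higher in CeA in bulk nuclei, with no call in SOM+ nuclei. At Slc32a1 (chr2:158435494-158437493, mm9) the levels were 94.3, 92.1, 87.9 and 88.5 CPM in CeA SOM+, 108, 99.7, 90.3 and 105 CPM in cortex SOM+, 83.4, 59.4, 73.5, 59.8 and 52.1 CPM in CeA bulk and 17.8, 21.7, 13.1, 13.8 and 23.2 CPM in cortex bulk libraries. SOM+ libraries of the 2 regions overlapped, and every CeA bulk library lay above every cortex bulk library. The region difference was -0.15 ± 0.15 in SOM+ and 1.82 ± 0.15 in bulk nuclei (SE), and the interaction -1.98 ± 0.21 (SE, adjusted p = 4.46e-09). Gad1 followed, with an interaction of -1.58 ± 0.20 (SE, adjusted p = 7.12e-08) from -0.13 in SOM+ and 1.45 in bulk nuclei. Sp9, a zinc-finger factor of ventral forebrain neurons, had -1.62 ± 0.21 (SE, adjusted p = 1.48e-07), and the oligodendrocyte-lineage factor Sox8 had -1.19 ± 0.20 (SE, adjusted p = 7.23e-06).

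Gad2, which encodes the second GABA-synthesising enzyme, was higher in CeA in both sorts, by 0.70 in SOM+ and 1.49 in bulk nuclei, and its interaction of -0.78 passed (adjusted p = 0.00181). Of the 17 windows of GABAergic neuron genes, 10 were lower and 1 was higher, beside 35% and 19.6% of the 16417 windows. Their median was -0.85, against -0.19 over all 16417 windows. CeA was higher at 10 and lower at 1 of the 17 in bulk nuclei, where 8.71% of all windows tested and 11.6% of the 16417 were higher. In SOM+ nuclei CeA was higher at 4 and lower at 8, beside 14.9% and 42.1% of the 16417 windows. The window with the higher interaction was Sp8, a zinc-finger factor, at 2.17. With the gene-density correction described below, 14 were lower and 1 higher, beside 30.4% and 13.8% of the 16417 windows in that fit.

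Several promoters of MGE-derived interneuron genes were lower in CeA in SOM+ nuclei with no call in bulk nuclei. At Cort (chr4:148499873-148501872) the levels were 14.04, 14.01, 14.3 and 10.5 CPM in CeA SOM+, 93.4, 96.7, 84.8 and 100.5 CPM in cortex SOM+, 7.79, 12.8, 11.3, 15.8 and 13.9 CPM in CeA bulk and 13.01, 9.13, 9.77, 10.5 and 9.28 CPM in cortex bulk libraries. Cortex SOM+ libraries alone were high, and the other 14 libraries lay between 7.79 and 15.8 CPM. The difference was -2.81 ± 0.17 in SOM+ and 0.30 ± 0.17 in bulk nuclei (SE), and the interaction of -3.11 ± 0.24 (SE, adjusted p = 8.85e-12) was the most negative of the named genes. Lhx6 (interaction -2.10), Sox6 (-1.98) and Crhbp (-1.89) were lower too; Lhx6 and Sox6 encode transcription factors of this lineage and Crhbp encodes the binding protein of corticotropin-releasing hormone. Their bulk region differences lay between -0.05 and 0.01, and in SOM+ nuclei between -2.15 and -1.93.

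The homeobox gene Dlx1, which acts in GABAergic neuron development, was low in CeA in SOM+ nuclei, with an interaction of -2.15 ± 0.19 (SE, adjusted p = 1.44e-10). Its levels were 34.9 ± 2.90 CPM in CeA SOM+ and 138 ± 4.59 CPM in cortex SOM+ libraries (SD, n = 4). In bulk libraries they were 27.4 ± 2.81 CPM and 24.9 ± 3.59 CPM (SD, n = 5). Trim67 (-2.30) and C1qtnf1 (-2.63) were of the same kind. Of 19 windows of the MGE and somatostatin list, 8 were lower and 3 higher (Chodl 1.51, Etv1 0.97, Calb1 0.72), with a median of -0.49. These shares are near the 35% lower and 19.6% higher of the 16417 windows. With the gene-density correction 12 were lower and 2 higher (median -0.90), beside 30.4% and 13.8% of the 16417 windows in that fit. Over the list CeA was lower at 12 and higher at 4 in SOM+ nuclei, and lower at 5 and higher at 3 in bulk nuclei, beside 42.1% lower and 14.9% higher of the 16417 windows in SOM+ and 18.7% and 11.6% in bulk nuclei. Sst had levels of 26.4, 11.6, 15.6 and 22.03 CPM in CeA SOM+, 16.3, 18.4, 14.5 and 18.2 CPM in cortex SOM+, 25.7, 20.2, 12.7, 21.5 and 19.9 CPM in CeA bulk and 9.93, 7.81, 14.1, 12.9 and 18.6 CPM in cortex bulk libraries, which overlapped between regions in both sorts. CeA was higher in bulk nuclei, by 0.67 ± 0.22 (SE, adjusted p = 0.0244), and the difference in SOM+ nuclei was 0.17 ± 0.23 (SE, adjusted p = 0.564). Its interaction was -0.49 ± 0.32 (SE, adjusted p = 0.214), and -0.88 without CeA SOM+ control 1 (adjusted p = 0.0354).

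Windows that were high in CeA in SOM+ nuclei alone were led by Ptprd, which encodes a receptor-type tyrosine phosphatase of the synapse (chr4:77856800-77858799). Its levels were 182, 110.2, 175 and 118 CPM in CeA SOM+, 20.4, 17.5, 27.3 and 16.1 CPM in cortex SOM+, 121, 89.8, 107, 66.6 and 94.2 CPM in CeA bulk and 49.997, 79.3, 82.1, 79.4 and 67.1 CPM in cortex bulk libraries. Every cortex SOM+ library lay below every other library. The difference was 2.84 ± 0.17 in SOM+ and 0.33 ± 0.15 in bulk nuclei (SE), with an interaction of 2.50 ± 0.22 (SE, adjusted p = 1.15e-10). The homeobox factor Zfhx4 (2.78 ± 0.25, adjusted p = 1.24e-10), the desmosome gene Pkp2 (2.57 ± 0.25, adjusted p = 4.91e-10) and the extracellular matrix gene Fras1 (2.01 ± 0.20, adjusted p = 1.1e-09) followed. Of 30 windows of CeA and striatal neuron genes, 15 were higher and 6 lower (median 0.65), beside 19.6% and 35% of the 16417 windows. The serotonin receptor Htr2c (2.11), the homeobox factor Meis2 (1.51) and Penk (1.51), which encodes the enkephalin precursor, were higher. Pde10a (-1.21) and Drd1 (-1.16), a striatal phosphodiesterase and the D1 dopamine receptor, were lower. With the gene-density correction, 8 of the list were higher and 7 lower, beside 13.8% and 30.4% of the 16417 windows in that fit.

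Promoters of pallial transcription factors were lower in CeA at 17 of 29 windows in bulk nuclei and at 12 of 29 in SOM+ nuclei, beside 18.7% and 42.1% of the 16417 windows. Tbr1, a transcription factor of cortical projection neurons, had an interaction of 1.39 ± 0.22 (SE, adjusted p = 2.92e-06). Its region difference was -1.68 in bulk and -0.29 in SOM+ nuclei. Neurod6 differed by -2.78 in bulk and -1.05 in SOM+ nuclei, and its interaction was 1.73. The first gene by p of this kind was Herc3 (chr6:58782694-58784693), at 27.2, 22.6, 23.7 and 23.3 CPM in CeA SOM+, 21.1, 18.7, 23.005 and 19.7 CPM in cortex SOM+, 29.2, 17.2, 19.5, 16.9 and 29.2 CPM in CeA bulk and 48.97, 53.6, 74.04, 56.5 and 68.6 CPM in cortex bulk libraries. Cortex bulk libraries stood above the other 13, and the difference was 0.23 ± 0.18 in SOM+ and -1.45 ± 0.16 in bulk nuclei (SE), with an interaction of 1.68 ± 0.24 (SE, adjusted p = 5.4e-07). Mup5, a major urinary protein gene of a family of near-identical copies, had 2.20 ± 0.35 (SE, adjusted p = 3.14e-06), and its reads may be shared among those copies. Of 29 pallial windows, 12 were higher and 2 lower, beside 19.6% and 35% of the 16417 windows. The lower 2 were Cux1 (-1.61) and Cux2 (-2.26), which encode upper-layer homeobox factors. The list had 5 calls in each direction with the gene-density correction, beside 13.8% higher and 30.4% lower of the 16417 windows in that fit.

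**Figure D2:**
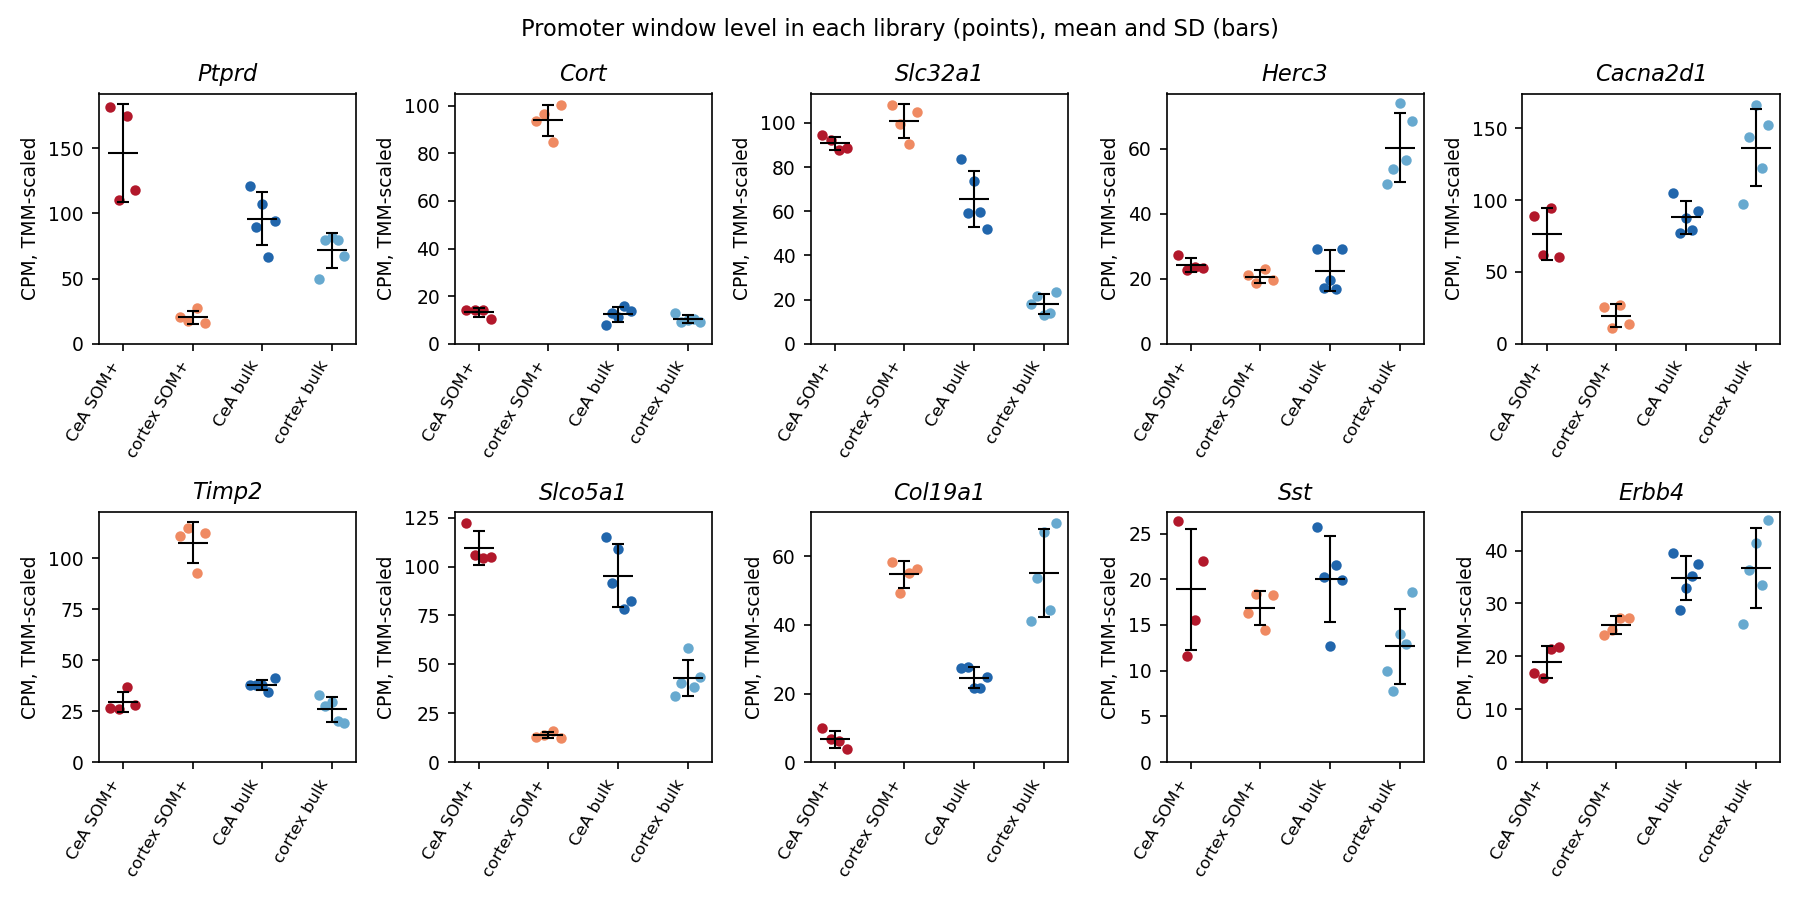
TMM-scaled CPM at 10 promoter windows (y axes, each from 0) in CeA SOM+, cortex SOM+, CeA bulk and cortex bulk libraries (x axes); points are libraries and bars the mean and SD over 4 SOM+ or 5 bulk libraries. Cort is high in cortex SOM+ libraries alone, Slc32a1 is low in cortex bulk libraries alone, Timp2 and Cacna2d1 change direction between the sorts, and Sst overlaps between regions.

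Among windows with opposite region differences that were high in CeA in SOM+ nuclei, Cacna2d1 (chr5:15439509-15441508) had the smallest p of the genes named by rule. Its levels were 89.1, 61.7, 94.3 and 60.2 CPM in CeA SOM+, 25.8, 11.2, 27.2 and 14.1 CPM in cortex SOM+, 105, 76.9, 87.2, 78.9 and 92.2 CPM in CeA bulk and 97.6, 144, 166, 122 and 152 CPM in cortex bulk libraries. CeA lay above cortex in SOM+ libraries without overlap, and in bulk libraries CeA was lower on average, with KO 1 of CeA above KO 1 of cortex. The difference was 2.00 ± 0.17 in SOM+ and -0.63 ± 0.14 in bulk nuclei (SE), and the interaction 2.63 ± 0.22 (SE, adjusted p = 5.01e-11). The signalling regulator Rgs20 (1.99 ± 0.20, adjusted p = 7.79e-10) and the X-linked genes Shroom2 (2.29 ± 0.23, adjusted p = 9.67e-10), which encodes an actin-binding protein, and Slitrk2 (2.03 ± 0.20, adjusted p = 1.18e-09), which encodes a synaptic adhesion protein, followed. These genes were high in CeA in SOM+ and low in bulk nuclei, with bulk libraries of the regions overlapping at Rgs20 and Slitrk2. The converse pattern was shown by Timp2 (chr11:118215726-118217725), at 26.8, 26.1, 36.9 and 28.3 CPM in CeA SOM+, 111, 115, 92.7 and 113 CPM in cortex SOM+, 37.7, 38.1, 37.98, 34.4 and 41.4 CPM in CeA bulk and 33.05, 27.4, 29.3, 20.3 and 19.2 CPM in cortex bulk libraries. The regions did not overlap in either sort: CeA was below cortex in SOM+ and above it in bulk libraries. The difference was -1.87 ± 0.14 in SOM+ and 0.63 ± 0.13 in bulk nuclei (SE), and the interaction -2.50 ± 0.19 (SE, adjusted p = 8.59e-12). The neural progenitor factor Sox1 (-2.61 ± 0.21, adjusted p = 2.44e-11) and the chromatin gene Bahcc1 (-2.53 ± 0.21, adjusted p = 3.86e-11) were of the same kind. Libraries of the 2 regions did not overlap in either sort, with opposite order, at 609 windows (3.71%, against 2.49% of all windows tested), and 492 of them were among the 1620.

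At windows that differed in the same direction in both sorts, the size differed. Slco5a1, an organic anion transporter gene (chr1:12980217-12982216), stood at 122, 106, 105 and 105 CPM in CeA SOM+, 12.9, 13.9, 16.1 and 12.5 CPM in cortex SOM+, 115, 91.7, 109, 78.2 and 82.6 CPM in CeA bulk and 34.1, 40.4, 58.6, 38.6 and 43.5 CPM in cortex bulk libraries. CeA was above cortex in both sorts without overlap, by 2.98 ± 0.16 in SOM+ and 1.11 ± 0.14 in bulk nuclei (SE), with an interaction of 1.86 ± 0.20 (SE, adjusted p = 6.65e-09). Sybu (1.56), Arpp21 (1.52) and Spink8 (2.20) were of this kind. Col19a1, a collagen gene (chr1:24593277-24595276), was lower in CeA in both, at 9.96, 6.74, 6.05 and 3.95 CPM in CeA SOM+, 58.2, 49.2, 55.2 and 56.2 CPM in cortex SOM+, 27.3, 27.8, 21.7, 21.5 and 24.9 CPM in CeA bulk and 41.3, 53.6, 67.01, 44.5 and 69.6 CPM in cortex bulk libraries. Its difference was -3.07 ± 0.19 in SOM+ and -1.17 ± 0.15 in bulk nuclei (SE), and its interaction -1.90 ± 0.24 (SE, adjusted p = 1.07e-07). Frmpd1 (-1.68), Zbtb7b (-1.55) and Ntn4 (-1.85), which encodes a netrin, were lower as well.

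Erbb4, the neuregulin receptor deleted in SOM+ cells of the KO mice, stood at 16.8, 15.9, 21.5 and 21.7 CPM in CeA SOM+, 23.9, 24.9, 27.3 and 27.2 CPM in cortex SOM+, 39.6, 28.8, 32.95, 35.2 and 37.5 CPM in CeA bulk and 26.03, 36.3, 41.4, 33.6 and 45.8 CPM in cortex bulk libraries. SOM+ libraries of CeA lay below those of cortex, and bulk libraries of the regions overlapped. Its interaction was -0.38 ± 0.23 (SE, adjusted p = 0.171), with -0.46 ± 0.17 in SOM+ and -0.08 ± 0.15 in bulk nuclei (SE). With the gene-density correction it was -1.12 (adjusted p = 2.81e-05), and with promoter enrichment as a covariate 0.03 (adjusted p = 0.967). Of 12 ErbB and neuregulin windows, 4 were higher and 3 lower, beside 19.6% and 35% of the 16417 windows. The ligand genes Btc (1.09), Areg (0.81), Nrg3 (0.69) and Nrg1 (0.66) were higher, and the ligand genes Hbegf (-1.27) and Nrg2 (-0.97) and the receptor gene Erbb2 (-0.90) lower. With the gene-density correction Nrg1 (0.0076, adjusted p = 0.984), Nrg3 (-0.04, adjusted p = 0.908) and Erbb2 (-0.56, adjusted p = 0.151) were not called. A promoter window outside the deleted part does not check a knockout, and whether this window holds it is not given in the sources used here.

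The interaction followed gene density. Windows were ranked by the number of other promoter windows within 1 Mb and divided into 5 classes. The median interaction was 0.50 in the sparsest class (0 to 15 neighbours), 0.09, -0.31, -0.63 and, in the densest (61 to 146), -0.75. Both terms moved, and in opposite directions: the SOM+ region difference went from 0.16 to -0.52 and the bulk region difference from -0.31 to 0.25. The order of the 5 classes was the same under upper quartile and cyclic loess scaling, with the enrichment covariate and without the 4 libraries that go against their sex label (0.57 to -0.71). Across 16417 windows density and interaction had a rho of -0.56, as a description.

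**Figure D3:**
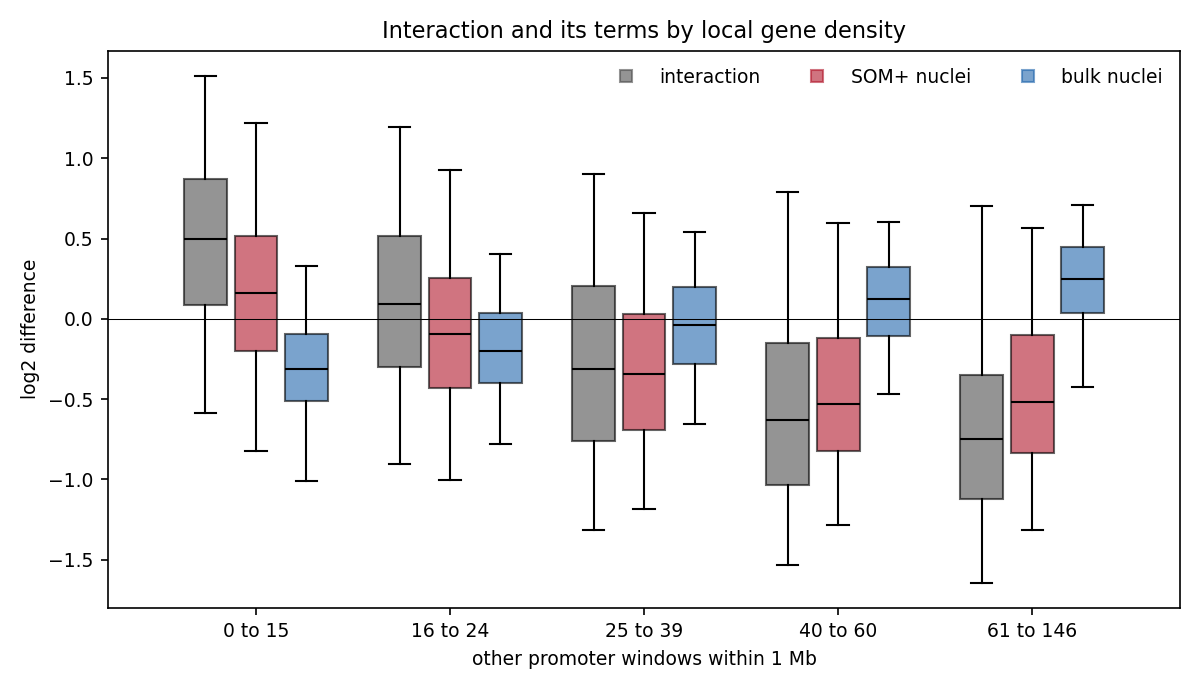
Log2 interaction (grey), CeA minus cortex difference in SOM+ nuclei (red) and in bulk nuclei (blue) by the number of other promoter windows within 1 Mb (x axis); boxes give median and quartiles over windows, whiskers the central 90% of windows. The interaction falls from a median of 0.50 to -0.75 while its terms move in opposite directions.

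The libraries showed the same measure one by one. The level in the densest class minus that in the sparsest, relative to the mean over libraries, was 0.31 ± 0.19 in CeA SOM+, 1.07 ± 0.22 in cortex SOM+, -0.29 ± 0.19 in CeA bulk and -0.81 ± 0.40 in cortex bulk libraries (SD, n = 4, 4, 5 and 5, log2). The 4 cortex SOM+ libraries, from 0.81 to 1.30, lay above the other 14. Cortex bulk libraries spread most, from -1.26 in KO 3 to -0.26 in KO 1, which overlapped with CeA bulk. Promoter enrichment had the same order over the SOM+ groups. With enrichment as a covariate, the class medians of the interaction still ran from 0.79 in the sparsest to -0.60 in the densest class.

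Neighbouring windows had like values. The interaction at a window and the median of the other windows within 1 Mb, overlapping ones left out, had a Pearson r of 0.84 over 16325 windows with a neighbour, as a description; windows that share a neighbourhood are not independent. Of 8889 calls among them, 8561 (96.3%) had the sign of their neighbours. In 317 stretches of 5 Mb with at least 20 windows, the median ran from -1.78 to 1.43. The lowest lay on chromosome 11 from 120 Mb to 125 Mb (mm9), where 53 of 55 windows were called lower and 0 higher; Fasn, the fatty acid synthase gene, had -1.81 there and Bahcc1 -2.53. The highest lay on chromosome 1 from 5 Mb to 10 Mb, where 24 of 25 were called higher and 0 lower, with Rgs20 at 1.99, the kappa opioid receptor gene Oprk1 at 1.61 and the syntrophin gene Sntg1 at 1.62. By chromosome, medians were lowest on 11 (-0.80), 15 (-0.67) and 5 (-0.60).

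The X chromosome stood apart from the autosomes. Its 496 windows had a median of 0.79, and 372 were called higher against 1 lower. Its median lay between 0.55 and 0.89 in the 5 density classes, while autosomal medians lay between -0.75 and 0.48. The level of X windows minus that of autosomal windows was -0.01 ± 0.04 in CeA SOM+, -0.73 ± 0.07 in cortex SOM+, 0.14 ± 0.08 in CeA bulk and 0.45 ± 0.23 in cortex bulk libraries (SD, log2). Each SOM+ group held 1 library labelled male and 1 labelled female. The X median was 0.80 with sex from the Y-linked promoters, 0.89 without the 4 libraries that go against their label and 0.71 with the gene-density correction.

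**Figure D4:**
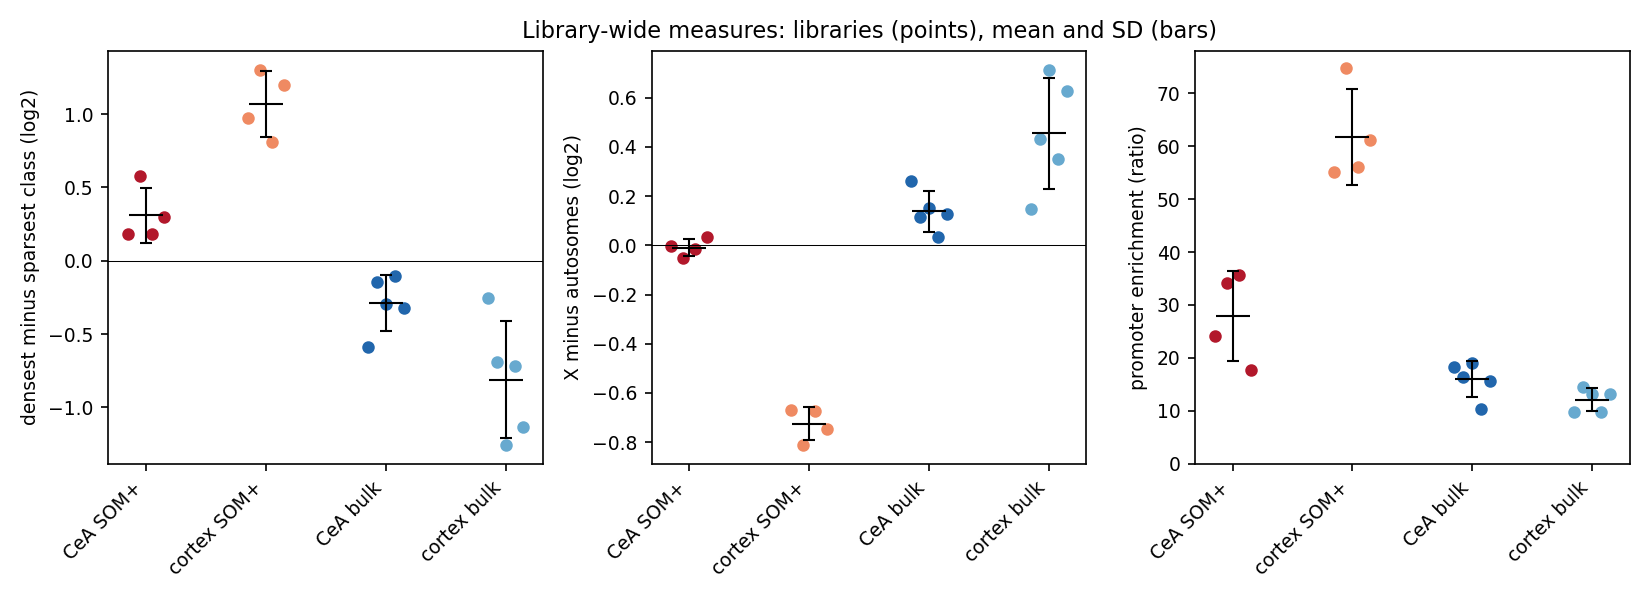
Measures per library in CeA SOM+, cortex SOM+, CeA bulk and cortex bulk groups: the log2 level of the densest minus the sparsest gene-density class (left), of X minus autosomal windows (middle) and promoter enrichment as a ratio (right); points are libraries and bars the mean and SD. Cortex SOM+ libraries lie apart from the other 14 in each plot, while CeA and cortex bulk libraries overlap.

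A correction for gene density was added after this pattern was seen: per library, a smooth curve of the level on the number of neighbours entered the fit as an offset. The interaction was then called at 7252 windows (44.2%, against 34.5% of all windows tested), 2260 higher (13.8%) and 4992 lower (30.4%). Of these calls, 5912 were shared with the uncorrected fit, all 5912 with the same sign. Opposite region differences fell to 882, of which 613 were among the 1620. The median of the densest class was then -0.36 and that of the sparsest -0.05, and neighbours still had an r of 0.77.

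Promoters of the GABAergic list and of the MGE and somatostatin list often lay below their chromosomal neighbourhood. Over all 16325 windows with a neighbour, 205 (1.26%) lay more than 1 log2 unit below the median of their neighbours and 427 (2.62%) more than 1 above. Of the 17 GABAergic windows, 12 lay more than 1 below and 0 above, with a median of -1.41 relative to their neighbours. Dlx5 (-1.86), Dlx6 (-1.76) and Dlx1 (-1.74) were among them; Dlx1, Dlx2 and Dlx1as share a neighbourhood, as do Dlx5 and Dlx6. At Dlx5 and Dlx6 the interaction itself was not called (-0.47 and -0.36), and they lie in the 5 Mb stretch of chromosome 6 from 5 Mb to 10 Mb with a median of 1.34. Of the 19 MGE and somatostatin windows, 11 lay more than 1 below, with Lhx6 (-2.13), Cort (-1.96) and Sst (-1.02) among them.

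The 12 GABAergic windows numbered 12 again without the 4 libraries that go against their sex label, with the enrichment covariate and with the gene-density correction, and were 11 under cyclic loess scaling; the MGE count lay between 9 and 13 over the 8 other fits tried. The 17 windows of other interneuron genes had a median of 0.14 relative to their neighbours, with Npas1 (-1.29) more than 1 below and Kit (1.06) more than 1 above. Pallial factors departed the other way: 5 of 28 lay more than 1 above, with Neurod6 (1.78), Neurod2 (1.51), Zbtb18 (1.11) and Emx1 (1.05) among them, and 0 below; the interaction itself was not called at Neurod2 and Emx1. With the enrichment covariate 1 lay above and 3 below. Of 30 CeA and striatal windows, 5 lay more than 1 above, with Zfhx4 (1.15), Meis2 (1.12), Zfhx3 (1.08) and Ikzf2 (1.40) among them; this count lay between 2 and 7 over the other fits. The window of Ikzf2 is compared with that of Erbb4 and the reverse. Erbb4 relative to Ikzf2 was at -1.40 and is among the 12 GABAergic windows, so this pair enters both counts.

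Constitutive promoters followed their neighbourhood, as most windows did. Of 82 cytosolic ribosomal protein windows, 42 were lower and 14 higher, beside 35% and 19.6% of the 16417 windows. Their median was -0.50 beside -0.51 for their neighbours, and 0 lay more than 1 log2 unit from their neighbours. Over the 16325 windows with a neighbour this share was 3.87%, too small for a count of 0 to set the list apart. Rpl13 had -1.69 beside -1.50, and Rpl15 1.40 beside 1.08. Of 78 windows of oxidative phosphorylation subunits, 29 were lower and 12 higher, shares near the 35% and 19.6% of the 16417 windows. Their median was -0.26, or 0.01 under cyclic loess scaling, and 0 lay more than 1 from their neighbours, beside the same 3.87%. Among 331 Zfp windows, 95 were higher and 100 lower, beside 19.6% and 35% of the 16417 windows. The 48 clustered protocadherin windows, which lie beside one another, gave 7 lower and 1 higher, Pcdhb1 (1.77), against 35% and 19.6% of the 16417 windows. Their region differences had medians of 0.38 in SOM+ and 0.59 in bulk nuclei. With the gene-density correction 0 were lower and 1 was higher, beside 30.4% and 13.8% of the 16417 windows in that fit.

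Receptor and guidance genes held larger shares of higher calls than the 19.6% of the 16417 windows, in counts that moved with the gene-density correction. Of 15 GABA-A receptor subunits, 9 were higher and 1 lower (median 0.84 beside 0.64 for their neighbours), with Gabra5 (1.09) among the former, and Gabrd (-1.09) the latter. Many of these subunit genes lie in shared clusters. With the gene-density correction 4 were higher and 2 lower, beside 13.8% and 30.4% of the 16417 windows in that fit. Of 44 axon guidance genes, 24 were higher and 9 lower (median 0.60), with Robo1 (1.95) and Robo2 (1.61), receptors of Slit, and Ephb1 (1.71), an ephrin receptor, higher and Unc5a (-1.49), a netrin receptor, lower. With the gene-density correction 8 were higher and 9 lower, beside the same 13.8% and 30.4%. Of 33 neuropeptide and monoamine receptors, 14 were higher and 5 lower; beside Htr2c, the neuropeptide Y receptor Npy1r (1.46) and Cckbr (1.42) were higher, while Oxtr (-1.22), Htr2a (-1.08), Chrm3 (-0.95) and Oprl1 (-0.68) were lower. The delta opioid receptor Oprd1 was lower at -2.25, from 13.9 ± 2.10 CPM in CeA SOM+ and 79.3 ± 8.33 CPM in cortex SOM+ libraries (SD, n = 4).

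Potassium channel genes gave 16 higher and 15 lower of 48, beside 19.6% and 35% of the 16417 windows. Kcnv1 (1.56) and Kcnq5 (1.17) stood at the upper and Kcnk1 (-1.25) at the lower side. The list median of -0.06 was 0.22 under cyclic loess scaling. Of 30 immediate early genes, which respond fast to neuronal activity, 12 were lower and 6 higher (median -0.33 beside -0.55 for their neighbours), shares near the 35% and 19.6% of the 16417 windows. Fos had -0.87, Npas4 -1.13 and Ier2 -1.30. Among 28 glutamatergic neuron genes 12 were higher and 6 lower, and other interneuron genes gave 6 higher and 4 lower of 17. Beside these stand 19.6% higher and 35% lower of the 16417 windows. In the glutamatergic list Sv2b, a synaptic vesicle gene, had 2.19 and Nrgn, the neurogranin gene, 1.37. In the interneuron list Pvalb, the parvalbumin gene (-1.73), Npas1 (-1.31), Kcnc1 (-1.03) and Reln (-0.57) were lower. Kit (1.24) and Tac1 (1.42) were among the higher. Of 1100 olfactory receptor promoters, 8 passed 10 CPM, too few to stand for the family.

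Marker windows of glia and vessels held counts in every group. Of 20 astrocyte windows tested, 17 passed 10 CPM. Of these, 6 were higher and 3 lower (Atp1b2 -1.73, Aldoc -1.36, Fgfr3 -0.92), beside 19.6% and 35% of the 16417 windows. The summed level of the 20 lay between 271 and 300.2 CPM in CeA SOM+, 308 and 332 in cortex SOM+, 452 and 492 in CeA bulk and 449 and 559 in cortex bulk libraries. Of 24 oligodendrocyte lineage windows, 18 passed. Of these, 4 were higher and 4 lower, beside 19.6% and 35% of the 16417 windows. The higher were Olig1 (1.18), Ugt8a (1.04), Ermn (0.94) and Enpp2 (0.82), and the lower Gal3st1 (-1.54), Nkx6-2 (-1.32), Cnp (-1.07) and Sox10 (-0.79). The sum of the 24 lay between 313 and 342, 375 and 393, 489 and 544, and 523 and 674 CPM in the same order. Of 21 microglia windows, 5 passed and 0 were called by edgeR, by DESeq2 or by limma with cyclic loess scaling, with 0 at an unadjusted p under 0.05. Of 26 vascular windows, 14 passed, with Kdr higher (1.33) and Slc2a1 lower (-0.60). Beside the microglia and vascular counts stand 54.6% called of the 16417 windows, and 46.0% of those at 10 to 30 CPM, where most windows of these 2 lists lay. No marker window of these 4 lists was at 0 in all libraries, and the same held for the 1096 olfactory receptor windows tested. Counts at a window thus do not show that cells of a type were present. The astrocyte and oligodendrocyte sums were lower in SOM+ than in bulk libraries without overlap, whereas the microglia and vascular sums overlapped between the sorts. The sum over the neuropeptide and monoamine receptor list was lower in SOM+ libraries without overlap too. The part of glial and vascular cells in the interaction was not tested.

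**Figure D5:**
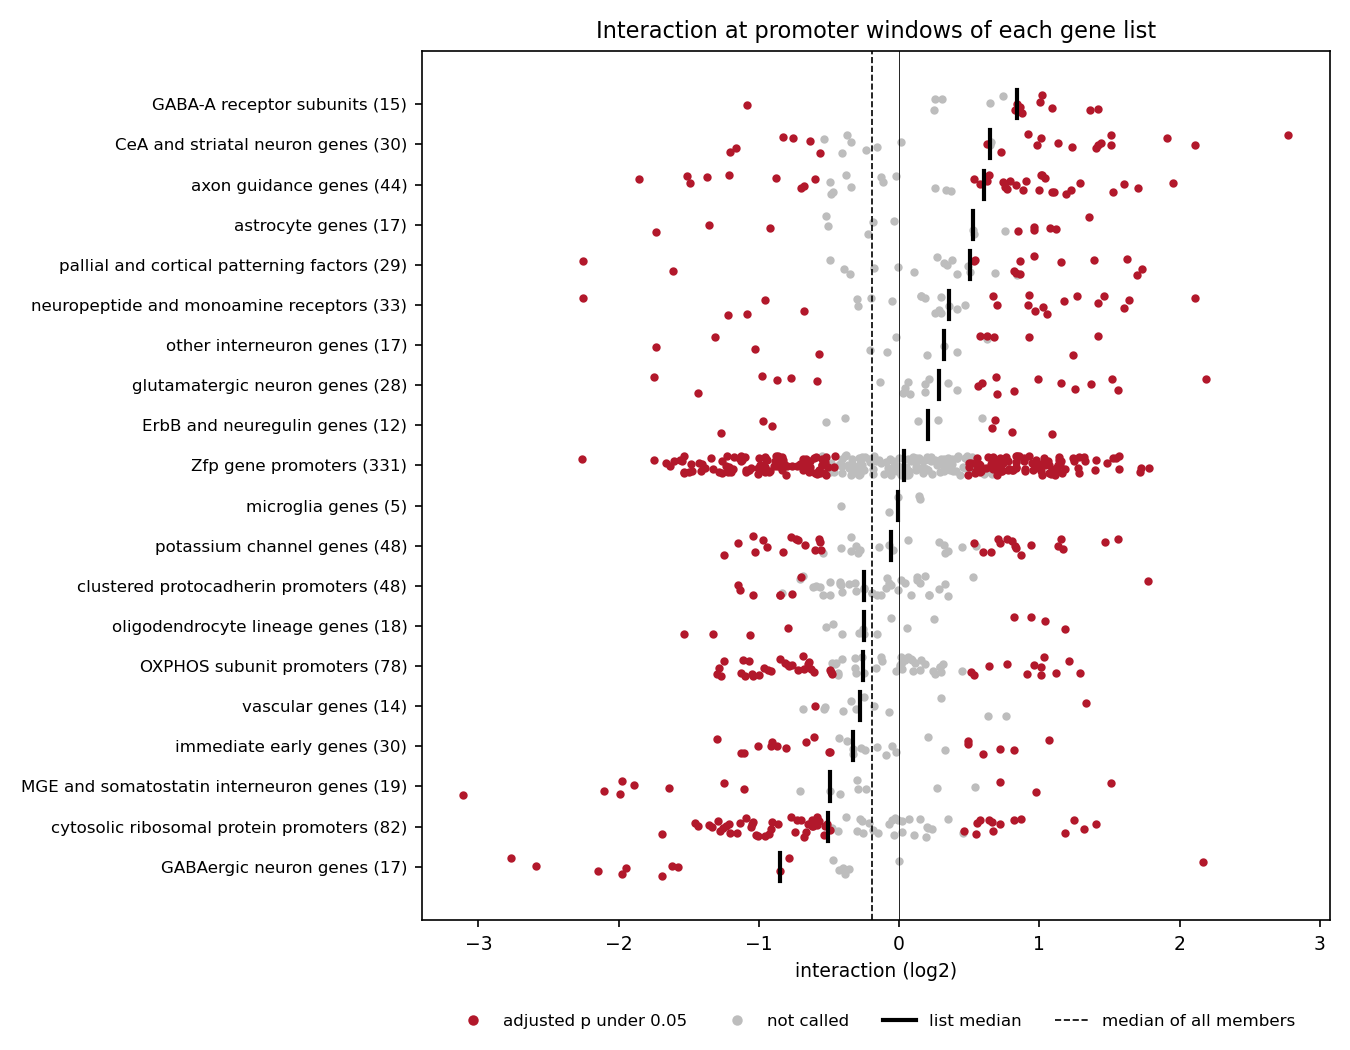
Log2 interaction (x axis) at the promoter windows of 20 gene lists with at least 5 windows, olfactory receptors left out (y axis, number of windows in brackets), in red where the adjusted p was under 0.05 and in grey otherwise; black bars are list medians and the dashed line the median of all 16417 windows. GABAergic neuron genes have the lowest list median at -0.85 and GABA-A receptor subunits the highest at 0.84.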

How the data were processed

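ATAC-seq promoter counts of 18 mouse libraries were used. The deposited file holds whole-number counts per promoter window, not normalized, with windows of 1 kb to either side of a start site in mm9. Reads were demultiplexed with bcl2fastq 2.16.0.10 and handled with Trimmomatic 0.32, Bowtie2, Picard 1.88 and MACS2, with the build mm9, per the submitters' processing notes. For the counting program, duplicates, the Tn5 offset and strand the steps were not given in the sources used here, so reads of overlapping or antisense promoters cannot be told apart.

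From 26728 entries, 663 repeats of a window were dropped. The counts were fitted in R 4.3.3 with edgeR 4.0.16: TMM scaling, filterByExpr (minimum count 10, minimum total 15), 8 group means plus labelled sex, and the quasi-likelihood test with Benjamini-Hochberg adjustment over 25246 windows. Tests were called at an adjusted p under 0.05. The fit was tested on simulated data. Alternatives were total-count and upper quartile scaling, DESeq2 1.42.0, limma 3.58.1 with cyclic loess scaling, other filters, thresholds, covariates and sample subsets, a replicate block, and leaving out each library. Sex from Y-linked promoters, the omission of 4 libraries and the gene-density correction (lowess span 0.3) were added after seeing the data.

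Members and gene lists were chosen with earlier results of these data known. Genes were named as the 4 smallest p-values of each class of calls that held without each library and under cyclic loess scaling, plus Sst, Cort, Erbb4 and the 2 to 4 smallest p-values of each list. Others, such as those that complete a small count, lie in an extreme stretch of a chromosome or differ from their neighbours, were chosen after their values were seen. Promoter sequences were taken from RefSeq (GRCm38.p6); Arpp21, with 9 entries there, was not printed. A check of GC content over the windows is void, since 12563 of 16417 (76.5%) matched that table. Some genes that the rule names are not reported here, and they stay in the counts of lists and windows. Coordinates were not converted between builds.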

Additional observations from a re-analysis of the deposited data

Results flagged for a closer look

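The interaction is itself a test of whether the region difference differs between sorts, and it passed at 8958 windows, with opposite and called region differences at 1620. The genes named for opposite differences were Cacna2d1 (2.63), Rgs20 (1.99), Shroom2 (2.29) and Slitrk2 (2.03), high in CeA in SOM+ nuclei, and Timp2 (-2.50), Sox1 (-2.61) and Bahcc1 (-2.53), low in CeA in SOM+ nuclei. With the gene-density correction, Rgs20 and Bahcc1 kept a called region difference in SOM+ nuclei alone. Bulk libraries of the regions overlapped at Cacna2d1, Rgs20 and Slitrk2. Promoter enrichment differed in the same contrast by -1.59 on the log2 scale.

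In the per-library levels of the genes shown in full, 1 library lay far from the rest of its group in 2 cases. CeA SOM+ fear 2 was low at Cort, at 10.5 CPM, and CeA SOM+ control 1 was high at Slco5a1, at 122 CPM. Chance marks about 1 in 20 groups in this way.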

How the results depend on the processing

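Every named window whose interaction was called kept its direction under every scaling tried and without each library in turn. For genes named by class this is partly fixed by the naming rule. That rule took only calls that held without each library and under cyclic loess scaling. The other called genes were mostly picked for small p-values, so this is not a separate check. Upper quartile scaling gave 5003 higher windows, and a fit over the 16417 windows alone 4833. With promoter enrichment as a covariate, 3660 windows were called, 2022 higher and 1638 lower, with 3340 called in SOM+ and 5181 in bulk nuclei and 825 opposite. That covariate can hardly be told apart from the region difference in SOM+ nuclei. Libraries labelled male alone gave 5556, 1759 higher and 3797 lower, with 5692 in SOM+ nuclei and 720 opposite. SOM+ control and bulk WT libraries alone gave 1050 opposite windows and the gene-density correction 882. Without the 4 libraries that go against their sex label, 1416 were called in bulk nuclei and 294 were opposite. Leaving out 1 library gave 7803 to 9760 calls, 2723 to 3900 higher, 4858 to 6090 lower, 7912 to 10213 in SOM+ nuclei, 2538 to 6857 in bulk nuclei, 784 to 2565 opposite and an enrichment interaction of -1.73 to -1.39. Bulk calls and opposite windows were 2538 and 794 without cortex bulk WT 2, 2941 and 784 without CeA bulk WT 2, and 2998 and 964 without CeA bulk WT 1; without cortex bulk KO 1, 2565 were opposite. Fewer libraries were fitted in these cases; otherwise the cause was not tested. Irf8 (-0.07, not called) became 0.079 with total-count, 0.17 with upper quartile and 0.18 with cyclic loess scaling, 0.12 over the 16417 windows alone and 0.011 without the 4 libraries. Leaving out 1 library gave it -0.18 to 0.069: it was 0.069 without cortex SOM+ fear 1, 0.00050 without CeA bulk KO 2 and 0.0022 without cortex bulk WT 2. Erbb4 became 0.034 and Hoxd1 -0.69 with the enrichment covariate, Csf1r -0.018 with control and WT libraries alone, and Cd68 0.00036 and Nrg3 -0.035 with the gene-density correction. Of 101 named windows, 92 kept their call with that correction and 76 with the enrichment covariate. With the replicate number as a block, 8986 windows were called, 3236 higher and 5750 lower. Whether the numbers pair the libraries was not settled. Deviations of same-numbered CeA and cortex libraries correlated at 0.30 (control), 0.12 (fear), 0.39 (WT) and -0.33, 0.34 and -0.06 (KO). KO 1 and KO 3 did not correlate best with their own number. In arms with 2 libraries, the same and the other number give equal values of opposite sign by construction. KO 2 and WT 1 each went against their labelled sex in both regions. With 2 or 3 libraries per group and totals from 2655208 counts, a window that was not called is not shown to be alike in both sorts.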

Other observations

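Some promoters went against their surroundings. Of 8889 called windows with a neighbour within 1 Mb, 328 had the opposite sign to the median of their neighbours. On chromosome 6 from 5 Mb to 10 Mb, 17 of 22 windows were called higher and 1 lower: Dync1i1 (1.71), Shfm1 (1.49) and Asns (1.47) were higher, and the antisense gene Dlx6os1, in the Dlx5 and Dlx6 locus, was lower (-1.07). Windows without a neighbour within 1 Mb numbered 92.

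Of 39 Hox promoters, 2 passed 10 CPM, and 0 were called by edgeR, with 0 at an unadjusted p under 0.05, 0 by DESeq2 and 1 higher by limma with cyclic loess scaling.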
